A study of Schizosaccharomyces pombe with 6 samples.

Results

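The genes described here are 9 fission yeast (Schizosaccharomyces pombe) genes of the first steps of glucose use and of glucose repression, found by gene name among 6988 features of the count table. They are the hexokinase genes hxk1 (SPAC24H6.04) and hxk2 (SPAC4F8.07c), pgi1 (SPBC1604.05), pfk1 (SPBC16H5.02) and fba1 (SPBC19C2.07), the glucose-repressed genes fbp1 (SPBC1198.14c) and inv1 (SPCC191.11), and the regulator genes scr1 (SPBC1D7.02c) and rst2 (SPAC6F12.02). All 9 passed the filter on low counts. Both strains compared were h- cells in log phase in rich YES medium, and in both the pla1 locus was linked to the kanMX drug marker. The mutant strain, pla1-Y86D, has the Y86D change in the active site of Pla1, the enzyme that adds poly(A) tails to nuclear RNA, and the control strain, pla1-WT, has wild-type Pla1. Each strain gave 3 poly(A)+ RNA-seq libraries, which the series calls replicate experiments without saying whether they were separate cultures, so p-values measure only the spread between these libraries.

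Cells that take up glucose phosphorylate it with hexokinase, and the phosphohexose isomerase Pgi1, the phosphofructokinase Pfk1 and the aldolase Fba1 carry it on to the triose phosphates. Fructose-1,6-bisphosphatase, the product of fbp1, runs the phosphofructokinase step backwards in gluconeogenesis, and the invertase Inv1 is secreted to split sucrose. In fission yeast both of these genes are switched off by glucose. The zinc-finger repressor Scr1 and the cAMP-dependent kinase Pka1 act on that switch from the repressing side, and the zinc-finger activator Rst2, which Pka1 restrains, acts on fbp1 from the activating side.

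The libraries held between 17594840 and 21173765 counts in pla1-Y86D and between 19275152 and 21849845 in pla1-WT, and no library was set aside. The table as a whole differed widely between the strains: 81.2% of 6267 features tested passed an edgeR adjusted p of 0.05, 40.1% higher and 41.1% lower in pla1-Y86D. Of the 9 genes 8 passed, 5 higher and 3 lower, a share close to that of all features. The groups' CPM did not overlap for these 8, as for 81.9% of all features. Levels are CPM, the counts scaled to a common library total after TMM correction (trimmed mean of M-values). They are levels of poly(A)+ RNA in a comparison where the enzyme that adds the tails differs. For any gene, a difference in mRNA amount and one in recovery by the tail cannot be told apart here. Words such as rose and fell refer to these levels. At a size of at least 2-fold, 2 of the 9 were higher against 9.02% of all features, and scr1, the gene with the largest decrease, did not reach that size, which 2.38% of all features passed downward. Markers of the opposite mating type (map2 and map3) summed to 13.1 to 15.2 CPM in pla1-Y86D and 16.2 to 17.7 CPM in pla1-WT, and neither was at 0. Those of the labelled h- type summed to 94.2 to 99.3 CPM in pla1-Y86D and 99.7 to 107.5 CPM in pla1-WT, with all 6 above 0. The sums hide opposed members: 2 h- markers were higher, 2 lower and 2 not called, beside 40.1% higher and 41.1% lower of all features. Of the opposite type 1 was higher and 1 lower. The part of these markers in the results was not tested.

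The clearest differences were in the glucose-repressed genes. Both fbp1 and inv1 were several-fold higher in pla1-Y86D, with the same medium and growth phase in both strains. The level of fbp1 was 28.9, 29.3 and 29.4 CPM in the pla1-Y86D libraries, against 7.15, 5.55 and 6.37 CPM in the pla1-WT libraries. Every mutant library stood well above every control library. The mutant values lay closer together than the controls, but so few libraries cannot show this as a trait of the strain. Counting error alone gave the 504 reads of pla1-Y86D replicate 1 an exact Poisson 95% interval of 461 to 550. The fold change of fbp1 was 4.60 (log2 fold change 2.20, SE 0.083, edgeR adjusted p = 1.31e-22). That of 98.2% of all features was smaller in size.

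The invertase gene inv1 was at 17.7, 18.7 and 20.7 CPM in pla1-Y86D, against 5.31, 4.46 and 6.01 CPM in pla1-WT. Its groups were again apart. The fold change of inv1 was 3.63 (log2 fold change 1.86, SE 0.10, edgeR adjusted p = 3.37e-18). These are low-abundance mRNAs: the smallest count behind them was 98 reads of inv1 in pla1-WT replicate 2, with an exact Poisson 95% interval of 79.6 to 119, which covers counting error only. The corresponding pla1-Y86D replicate 2 count was 339 (304 to 377). In a bulk culture, more cells with the mRNA and more mRNA per cell cannot be told apart.

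**Figure D1:**
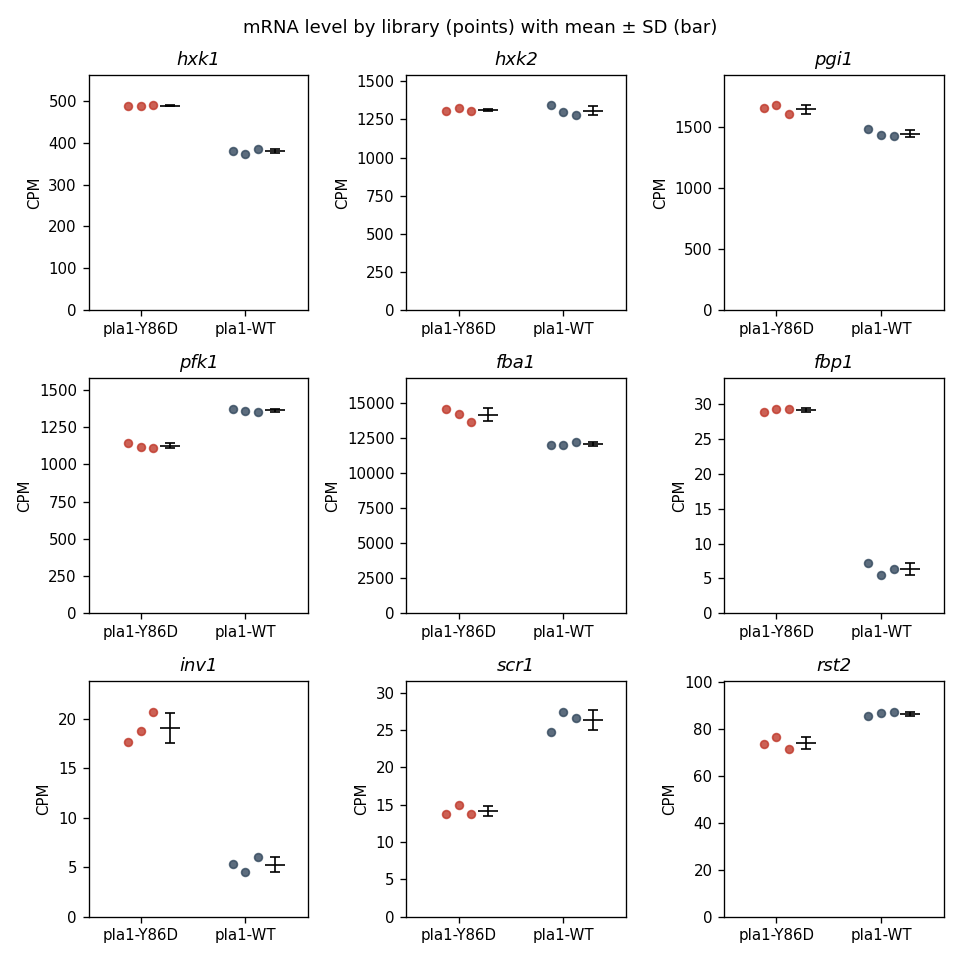
Level of each of the 9 genes in CPM (y axis, from 0) in the 3 pla1-Y86D libraries (left, red) and the 3 pla1-WT libraries (right, dark), with the mean ± SD as a black bar. The strains' points overlap for hxk2 and are apart for the other 8 genes, with the widest separation, taken as a ratio, for fbp1 (28.9 to 29.4 CPM in pla1-Y86D, 5.55 to 7.15 CPM in pla1-WT).

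Stress genes moved with fbp1 and inv1. All 8 stress markers listed were higher in pla1-Y86D, against 40.1% of all features, with a median log2 fold change of 0.92. They summed to 4330 to 4389 CPM in pla1-Y86D and 1686 to 1831 CPM in pla1-WT. The largest log2 fold changes among them were those of the small heat shock protein gene hsp9 (3.46), the metallothionein gene zym1 (2.87) and the glutathione peroxidase gene gpx1 (1.49). The stress list was chosen with earlier results of these data known, so its count is not independent of them. The part of this stress gene difference in the fbp1 and inv1 values was not tested.

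An annotated antisense RNA, fbp1-antisense-1 (SPNCRNA.1324), spans the whole fbp1 transcript on the other strand. It had 29.7, 32.3 and 30.2 CPM in pla1-Y86D, against 33.5, 32.0 and 33.3 CPM in pla1-WT. The groups overlapped, and the antisense RNA did not pass the test (log2 fold change -0.098, SE 0.052, edgeR adjusted p = 0.0832). It did pass with scaling by library totals alone (-0.12, adjusted p = 0.037) and without pla1-Y86D replicate 2 (-0.13, adjusted p = 0.036). Of the reads counted on either feature, the sense fbp1 share was 49.3%, 47.6% and 49.3% in pla1-Y86D and 17.6%, 14.8% and 16.1% in pla1-WT. The sense and antisense counts were thus about level in the mutant, while in the control the antisense RNA had most of the reads. The library kit marks the strand, but whether the counting used it is not stated in the sources at hand, so this division is uncertain.

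At inv1, the noncoding RNA SPNCRNA.1224 overlaps the end of the transcript by 67 bases on the same strand. It had 76, 92 and 127 reads in pla1-Y86D, against 36, 26 and 31 in pla1-WT. It rose together with inv1 (log2 fold change 1.82, SE 0.18, edgeR adjusted p = 4.75e-11). Reads at the end of inv1 could be assigned to either feature. The next protein-coding gene on that strand, bdf1, was lower in pla1-Y86D, at 184 CPM against 241 CPM in pla1-WT (log2 fold change -0.39).

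Poly(A)+ transcripts of the repressor gene scr1 were lower in the mutant. They were at 13.7, 14.9 and 13.8 CPM in pla1-Y86D, against 24.8, 27.4 and 26.6 CPM in pla1-WT. No mutant library came near the lowest control. The level in pla1-Y86D was 0.537 of that in pla1-WT (log2 fold change -0.90, SE 0.070, edgeR adjusted p = 8.13e-14), a change larger in size than that of 86.7% of all features. The activator gene rst2 also fell, by a smaller amount, to 73.6, 76.7 and 71.6 CPM in pla1-Y86D, against 85.6, 86.9 and 87.4 CPM in pla1-WT (log2 fold change -0.23, SE 0.035, edgeR adjusted p = 3.81e-07). This size lies within the middle range of all features. The gene fsv1 overlaps the end of rst2 by 194 bases on the other strand and rose by 0.56.

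The balance of activator to repressor mRNA was therefore compared within each library, where no scaling between libraries enters. It rests on the same counts as the fold changes above and is not separate evidence. The log2 ratio of rst2 to scr1 counts, not corrected for length, was 2.39 ± 0.034 in pla1-Y86D and 1.72 ± 0.063 in pla1-WT (SD, n = 3 each). The ratio was 1.59 times as high in the mutant. The groups did not overlap, and the two-sided exact permutation p was 0.1, the smallest that 3 libraries against 3 allow. The count ratio was 5.37, 5.13 and 5.20 in the pla1-Y86D libraries, against 3.45, 3.17 and 3.28 in the pla1-WT libraries.

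Among the enzymes of upper glycolysis the differences were small and of both signs. Of these genes 3 were higher, 1 was lower and 1 was not called, against 40.1% higher and 41.1% lower of all features. Their median log2 fold change was 0.18, against -0.0047 for all features. Hexokinase 1 mRNA rose. It was at 488, 489 and 489 CPM in pla1-Y86D, against 380.4, 374 and 385 CPM in pla1-WT (log2 fold change 0.36, SE 0.023, edgeR adjusted p = 4.25e-16). The mutant values lay close together, but so few libraries cannot show this as a trait of the strain. The mRNA of the second hexokinase, hxk2, was at 1307, 1323 and 1307 CPM in pla1-Y86D, against 1342, 1299 and 1282 CPM in pla1-WT. Here the strains overlapped and the test was not passed (log2 fold change 0.0052, SE 0.025, edgeR adjusted p = 0.851). In a fit to protein-coding features only, hxk2 passed at a log2 fold change of 0.060 (adjusted p = 0.0292).

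The proportion of the hexokinase mRNAs was compared within each library, from the same counts as their fold changes. The log2 ratio of hxk1 to hxk2 counts was -1.43 ± 0.010 in pla1-Y86D and -1.78 ± 0.042 in pla1-WT (SD, n = 3 each), again not corrected for length. The ratio was 1.28 times as high in the mutant, the groups did not overlap, and the two-sided exact permutation p was 0.1, the smallest possible. Summed over both genes, hexokinase mRNA was at 1801 ± 9.4 CPM in pla1-Y86D and 1688 ± 30.0 CPM in pla1-WT.

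The isomerase gene pgi1, which follows hexokinase, was at 1649, 1674 and 1601 CPM in pla1-Y86D, against 1479, 1429 and 1426 CPM in pla1-WT (log2 fold change 0.18, SE 0.026, edgeR adjusted p = 7.08e-08). The strains were apart, by a change larger in size than that of 31.6% of all features. On the other strand, SPNCRNA.1648 overlaps the start of the pgi1 transcript by 366 bases and rose by 0.71 on the log2 scale, and noc4 overlaps its end by 16 bases and was at -0.33. Aldolase mRNA, fba1, was the most abundant of the 9. It was at 14617, 14268 and 13695 CPM in pla1-Y86D, against 12037.5, 12016 and 12231 CPM in pla1-WT, and it rose by 0.23 on the log2 scale (SE 0.027, edgeR adjusted p = 2.03e-09). The mutant libraries varied more than the controls, with the lowest of them still above the highest control. Its reads made up 1.37% to 1.45% of all counts in pla1-Y86D and 1.21% to 1.23% in pla1-WT.

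The phosphofructokinase gene pfk1 went the other way from its neighbours in the pathway. It fell to 1143, 1117 and 1112 CPM in pla1-Y86D, against 1374.5, 1362 and 1352 CPM in pla1-WT (log2 fold change -0.28, SE 0.025, edgeR adjusted p = 2.35e-12). The gene uba2, which overlaps the end of pfk1 by 78 bases on the other strand, rose by 0.43. The phosphofructokinase gene was the one enzyme gene of the path from glucose to the triose phosphates that was lower in the mutant. Phosphofructokinase and fructose-1,6-bisphosphatase catalyse opposed reactions, and their mRNAs moved in opposite directions. The change of pfk1 was larger in size than that of only 45.9% of all features. The log2 ratio of fbp1 to pfk1 counts, not corrected for length, was -5.27 ± 0.035 in pla1-Y86D and -7.75 ± 0.18 in pla1-WT (SD, n = 3 each). This ratio was 5.58 times as high in the mutant, mainly through fbp1, whose own fold change was 4.60. The groups did not overlap, and the two-sided exact permutation p was 0.1, the smallest possible. Even so, pfk1 reads outnumbered fbp1 reads in every library, by 19966 to 504 in pla1-Y86D replicate 1 and by 26905 to 140 in pla1-WT replicate 1.

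**Figure D2:**
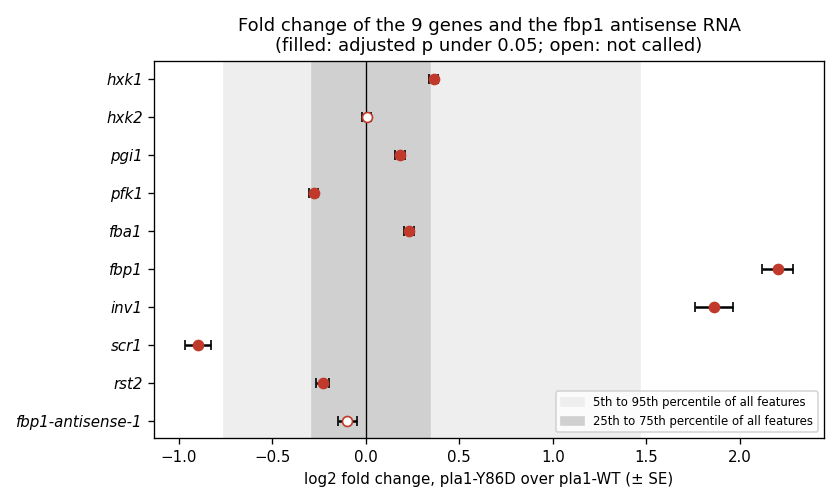
Log2 fold change of pla1-Y86D over pla1-WT (x axis) with its standard error for the 9 genes and for fbp1-antisense-1, over bands that hold the middle of all tested features. The genes fbp1 (2.20), inv1 (1.86) and scr1 (-0.90) lie outside the wide band, which runs from -0.76 to 1.46, while hxk1 to fba1 and rst2 lie in or near the narrow band from -0.29 to 0.34.

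Levels of different genes were compared per kb of annotated transcript. In pla1-Y86D the order was fba1 at 11097, pgi1 at 854, hxk2 at 740.2, pfk1 at 348 and hxk1 at 189.5 CPM per kb, then rst2 at 19.7, fbp1 at 17.1, inv1 at 6.98 and scr1 at 4.01 CPM per kb. In pla1-WT the first 6 places were the same, with fba1 at 9457, pgi1 at 751, hxk2 at 738, pfk1 at 422, hxk1 at 147 and rst2 at 23.1 CPM per kb. The order then differed, with scr1 at 7.45, fbp1 at 3.72 and inv1 at 1.93 CPM per kb. The repressor gene scr1 was thus above both glucose-repressed genes in the control and below both in the mutant. Within each strain the ranges of neighbours in the order were apart, except for pgi1 and hxk2 in pla1-WT. Their ranges overlapped at 742 to 769 and 723 to 757 CPM per kb, with pgi1 above hxk2 in each library. Per kb of coding sequence this pair changed places in pla1-WT, and no other place changed.

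**Figure D3:**
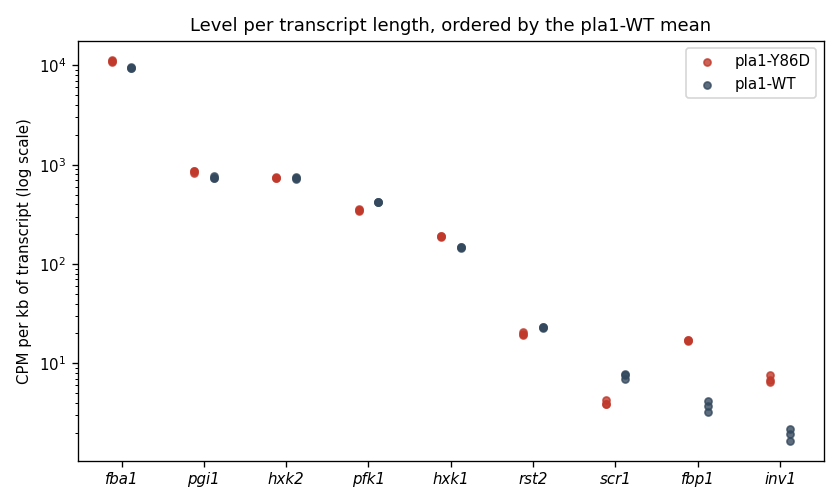
Level of the 9 genes in CPM per kb of transcript (log y axis) in each pla1-Y86D (red) and pla1-WT (dark) library, ordered by the pla1-WT mean. Aldolase mRNA stands above all others in both strains, and scr1 lies below fbp1 and inv1 in pla1-Y86D (4.01 against 17.1 and 6.98) and above them in pla1-WT (7.45 against 3.72 and 1.93).

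The 9 genes are spread over the chromosomes and differ in transcript length. Of them, hxk1, hxk2 and rst2 are on chromosome I, inv1 is on chromosome III and the other 5 are on chromosome II. Each has 1 annotated coding exon, and how common this is among all features was not counted. Annotated transcripts ran from 1279 bases (fba1) to 3749 bases (rst2), and those of scr1 (3527 bases) and rst2 were far longer than their coding sequences of 1698 and 1704 bases.

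The rest of the pathway was described from lists of genes. These lists were chosen with earlier results of these data known, so their counts are not independent of the data. Lower glycolysis, the steps from triose phosphate to pyruvate, had 8 of 8 genes higher in pla1-Y86D with a median log2 fold change of 0.72, against 40.1% of all features higher. Its summed level was 82911 ± 2697 CPM in pla1-Y86D and 51752 ± 189 CPM in pla1-WT, while the 5 upper glycolysis genes summed to 18204 to 19205 CPM in pla1-Y86D and 16480.4 to 16676 CPM in pla1-WT. Most of the upper sum was fba1, at a mean of 14193 CPM in pla1-Y86D and 12095 CPM in pla1-WT. Each of the 5 upper genes had a smaller log2 fold change than 7 of the 8 lower ones; gpm1 (0.26), the phosphoglycerate mutase gene, was below hxk1. The largest log2 fold changes of lower glycolysis were those of the enolase gene eno102 (3.07) and the glyceraldehyde-3-phosphate dehydrogenase genes gpd3 (1.02) and tdh1 (0.93). These have paralogs (eno101 for enolase), and how shared reads were counted is not given in the sources used here. The eno102 mRNA was scarce, at 19.3 CPM in pla1-Y86D and 2.30 CPM in pla1-WT, against 16937.5 and 11551 CPM for eno101.

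Sugar transport and the use of other sugars were described in the same way. Of the 8 hexose transporter genes 6 were higher and 2 lower, against 40.1% and 41.1% of all features, and 1 of the 6, ght5, lost its call without any one of 5 of the 6 libraries. The log2 fold changes were largest for ght6 (2.23), ght3 (1.49) and ght7 (1.43), whose mean levels were at most 7.82 CPM in pla1-Y86D and 2.74 CPM in pla1-WT, and these too are paralogs. Among 6 enzymes of other sugars, 5 were higher and 1 was not called, beside the same 40.1% of all features higher, with the melibiase gene mel1 at 2.55, the alpha-glucosidase gene agl1 at 1.63 and the galactose pathway gene gal10 at 1.39. The median of these sugar genes was 1.36, and mel1 was at only 7.01 CPM in pla1-Y86D and 1.16 CPM in pla1-WT. Branches leaving the hexose phosphates had 7 higher and 2 lower of 9 tested, against 40.1% higher and 41.1% lower of all features, led by the transaldolase gene tal1 (0.93), the UDP-glucose-forming fyu1 (0.89) and, lower, the ribose 5-phosphate isomerase gene rki1 (-0.73).

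**Figure D4:**
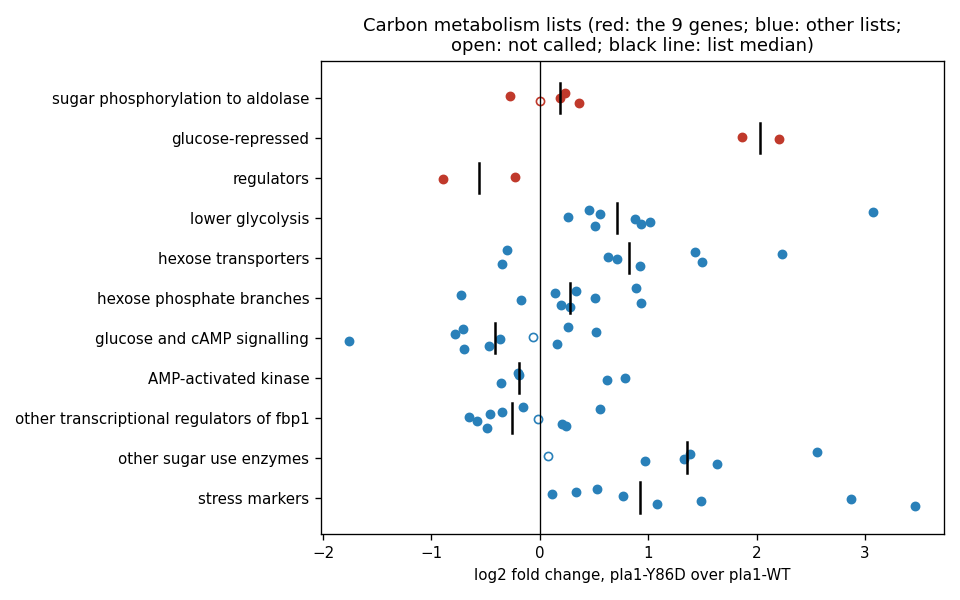
Log2 fold change of pla1-Y86D over pla1-WT (x axis) for each tested gene of the lists (rows), with the list median as a black line and genes that did not pass the test as open points. The lower glycolysis points all lie above 0 and most lie to the right of the upper glycolysis points, whose median is 0.18, while the signalling and regulator lists have medians below 0.

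In the glucose and cAMP pathway 3 were higher, 6 lower and 1 not called, with a median of -0.42, against 40.1% higher and 41.1% lower of all features. One of the 3, the G protein beta subunit gene git5 (0.15, edgeR adjusted p = 0.0255), was not called by DESeq2 (adjusted p = 0.0714), with library totals only (0.0586) or without any one of 3 libraries, pla1-WT replicate 2, pla1-Y86D replicate 1 or pla1-Y86D replicate 3 (0.074 to 0.0775). The G protein gamma subunit gene git11 (-1.76), the adenylate cyclase gene cyr1 (-0.78) and the phosphodiesterase gene cgs2 (-0.71) fell. Genes for making and for degrading cAMP were thus both lower. The git11 level was low, at 3.29 CPM in pla1-Y86D and 11.2 CPM in pla1-WT. The catalytic subunit gene pka1 rose by 0.26 and the regulatory subunit gene cgs1 by 0.52. In the AMP-activated kinase list, whose catalytic subunit Ssp2 acts on Scr1, 2 were higher and 3 lower, beside the same shares of all features, with amk2 at 0.78, ssp2 at 0.62 and the upstream kinase gene ssp1 at -0.36. Other transcriptional regulators of fbp1 had 3 higher, 6 lower and 1 not called, so that 9 of 10 were called, close to the 81.2% of all features. The corepressor gene tup12 (-0.66) and the MAP kinase kinase gene wis1 (-0.58) fell, and php3 (0.56), of the CCAAT-binding complex, rose. The mRNA of atf1, a transcription factor that activates fbp1, was at 101.1 ± 0.89 CPM in pla1-Y86D and 142 ± 3.4 CPM in pla1-WT (-0.49).

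Other genes known as targets of Scr1 or Rst2 did not all share the direction of fbp1 and inv1. The mating regulator gene ste11, an Rst2 target, was at -0.78 and the glycerol dehydrogenase gene gld1, repressed through Scr1, was at -0.61, both lower. The high-affinity glucose transporter gene ght5 was higher at 0.63 (SE 0.19, edgeR adjusted p = 0.0368), and its call was lost without any one of 5 of the 6 libraries, with log2 fold changes from 0.48 to 0.82 and adjusted p up to 0.113 over the 6 omissions.

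Profiles most like fbp1 and inv1 were sought among 4874 protein-coding genes with a mean count of at least 50, by Euclidean distance of log2(CPM + 0.5) centred on the pla1-WT mean over the 6 libraries. The nearest to fbp1 were frp1, a ferric-chelate reductase gene (distance 0.159), hop1 (0.213), dpe1 (0.230), mug9 (0.277) and mug28 (0.303). The nearest to inv1 were mug143 (0.230), get4 (0.333), amt3 (0.360), rep1 (0.362) and tps0 (0.398). With only 2 strains this distance reflects mainly the size of the strain difference, which ran from 2.06 to 2.27 on the log2 scale in the first set and from 1.66 to 1.86 in the second.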

How the data were processed

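The deposited table holds whole-number read counts per feature, made by the authors. Per the submitters' processing notes, the tools were HISAT2 2.1.0, HTSeq 0.10.0, SAMtools, DESeq and DESeq2, and the build was ASM294v2. How the counting treated strand and multiply aligned reads, and which annotation release it used, is not given in the sources used here. Per the file headers, the second table is the authors' DESeq2 comparison. Its signal columns (means of normalized counts), log2 fold changes, Wald score and p-value columns are as deposited, and only its gene and product names and its fold changes are used in the text. In the authors' deposited table the log2 fold changes of the 9 genes exceeded those found here by 0.0033 to 0.0042.

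The test of these counts was that of edgeR 4.0.16 under R 4.3.3 (filterByExpr, TMM scaling, robust quasi-likelihood fit, strain as the only term), with Benjamini-Hochberg adjustment over 6267 features and calls at an adjusted p under 0.05. Standard errors are the fold change divided by the square root of F. Ratios used counts plus 0.5. The procedure was tested on simulated data in which far fewer features changed than were called here. That test therefore cannot show how it performs when most features differ. Alternatives used DESeq2 1.42.0, limma 3.58.1, other scalings and filters, a replicate block and omission of each library. Genes and lists were chosen with earlier results of these data known. The text names all 9 genes, their antisense RNAs, overlapping features with counts, up to 3 called genes per list with the largest change, and the 5 nearest profiles; atf1, pka1, cgs1, git5, gpm1, bdf1 and the adjacent genes were named after their values were seen. The list genes zwf2 and pmi40 found no match by name and are not analysed here. Transcript lengths, overlaps and neighbours came from the RefSeq annotation of ASM294v3, which is not the build of the files, so no coordinates are printed. Of the features, 97.8% matched it. Within each strain any pair of libraries differed beyond sampling noise (chi-square over degrees of freedom, 1.63 to 4.83), so none was treated as a repeat.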

Additional observations from a re-analysis of the deposited data

How the results depend on the processing

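The fold changes of hxk1, pgi1, pfk1, fba1, fbp1, inv1, scr1 and rst2 kept their direction and stayed past the threshold in all 14 alternatives, with ranges of 2.11 to 2.29 for fbp1, 1.75 to 1.97 for inv1 and -0.94 to -0.84 for scr1. That of hxk2, not called, was near 0 and changed sign to -0.018 with library totals only and to -0.00136 with no low-count filter, and it was 0.060 and called with protein-coding features only, where the median of all features shifted by 0.0545. Leaving out 1 library moved it between -0.011 and 0.022. The cause was not tested. The uncalled corepressor gene tup11 (-0.019) was at 0.00111 with upper-quartile scaling, at 0.035 with protein-coding features only, and between -0.047 and 0.015 without 1 library. The 3 count ratios kept their sign in all 8 alternatives. Same-numbered libraries did not deviate together (correlations -0.103, 0.0681 and -0.0795), so the numbers were not taken as pairs. With the replicate block 2498 features were called higher and 2559 lower, against 2512 and 2574 without it, fbp1 was at 2.20, and no call among the 9 genes changed. Depth limits inv1 and fbp1 most, with 98 to 140 reads per pla1-WT library. All scalings compare each library with itself, which hides any change common to most mRNAs.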

Other observations

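The protein-coding genes next to the 9 genes were measured as well. Of 18 adjacent genes 17 were tested, 7 higher, 7 lower and 3 not called, close to the shares of all features (40.1% higher and 41.1% lower). The gene wwm3, which lies upstream of fbp1 on the other strand, was at 6.16 CPM in pla1-Y86D and 2.62 CPM in pla1-WT (log2 fold change 1.23, SE 0.14, edgeR adjusted p = 1.7e-09), against 2.20 for fbp1. The gene SPCC191.10, which lies upstream of inv1 on the same strand, was at 0.739 CPM in pla1-Y86D and 0.0931 CPM in pla1-WT. It is among the 7 called higher, but on so few reads that its fold change is not given. The genes beside scr1 moved in opposite directions, with pfd1 at 0.59 and clg1 at -0.12, while scr1 itself was at -0.90.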
